A study of Homo sapiens with 9 samples.

Results

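The 95 protein-coding genes described here carried editing sites in introns with both GPATCH8-ADAR and ADAR-SUGP1, and no site in the 5′ UTR, coding sequence, 3′ UTR or stop-codon region with either. They were chosen by the deposited site counts themselves: for each fusion the counts of a gene's protein-coding transcripts were summed, and a gene was kept when its intronic sum was 1 or more in both tables and the 4 exonic columns were 0 in both. They are 95 of the 1348 protein-coding genes listed for either fusion, of 145 listed for both, and of 107 with an intronic site with both. "Intronic editing with both fusions" would also take in the other 12, so the members are called shared intron-only genes. The name rests on the 4 exonic columns, because a further column headed Transcript was not used. With GPATCH8-ADAR, 1 listed transcript of a member had no count in the promoter, exonic and intronic columns.

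All samples were 293T cells, a human embryonic kidney line carrying the SV40 large T antigen, and the labels of all 9 samples mark SF3B1 as wild type. GPATCH8-ADAR was measured in 2 libraries of sequencing run 1 and ADAR-SUGP1 in 2 libraries of run 2. A non-targeting fusion of the same deaminase to MCP was measured in 2 libraries of each run, and untransfected cells in 1 library of run 2. The fusions were expressed from transfected plasmids, and living GFP-positive cells were sorted 24 h later, so the proteins were present in addition to those the cells make themselves. The labels also write the second fusion as SUGP1-ADAR, and the spelling of the table header is kept here.

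GPATCH8 and SUGP1 carry a G-patch, a short glycine-rich motif by which proteins bind and activate RNA helicases of the DEAH family. SUGP1 works with SF3B1, the U2 snRNP subunit at the branchpoint adenosine of an intron, and SF3B1 mutations known from blood cancers weaken this contact and lead to use of other 3′ splice sites. In TRIBE-seq the deaminase domain, here from a hyperactive Drosophila ADAR, turns adenosines near the contacted RNA into inosines, which are sequenced as guanosines. Introns are removed from most transcripts soon after they are made, so intronic reads in ribosomal-RNA-depleted total RNA come mainly from unspliced or partly spliced transcripts and from excised introns.

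A count is a number of editing sites, not of reads, and each table gives 1 number per transcript and region for sites present in both replicates after endogenous and control-fusion sites had been removed. Control values, editing levels and replicate values are therefore not analysed here, the spread between libraries is unknown, the labels do not say whether replicates were separate cultures, and no comparison between the fusions could be tested. The labels give 60 to 80 M paired reads of 100 bp per library for all libraries together. Coverage of each gene is unknown, and its part in which genes reached both lists was not tested. Since run 1 held one fusion and run 2 the other, the effects of run and of fusion cannot be told apart. No site positions were used, so whether the fusions edited the same adenosines is not known and no edited sequence is shown.

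The shared intron-only genes held 160 intronic sites in the GPATCH8-ADAR table and 144 in the ADAR-SUGP1 table. With GPATCH8-ADAR this was 28.3% of the 565 intronic sites in protein-coding genes. With ADAR-SUGP1 it was 17.3% of 834. They made up 25.7% of the 370 genes with an intronic site in the first table and 15.1% of the 628 in the second. The same 95 genes, with similar numbers of sites, enter both tables, so the shares differ mainly by the totals they are divided by.

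Most shared intron-only genes carried very few sites. The smallest combination the rule admits, 1 site with each fusion, was present in 40 of the 95. A further 16 had 2 sites for GPATCH8-ADAR and 1 for ADAR-SUGP1, 11 had 1 and 2, and 7 had 2 with each. Only 17 genes had 2 or more with both fusions, and 1, SLC30A5, had 3 or more with both. Per gene the mean was 1.68 ± 1.08 sites for GPATCH8-ADAR and 1.52 ± 0.944 for ADAR-SUGP1 (SD over genes, n = 95), with a median of 1 for each and highest counts of 6 and 7.

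**Figure D1:**
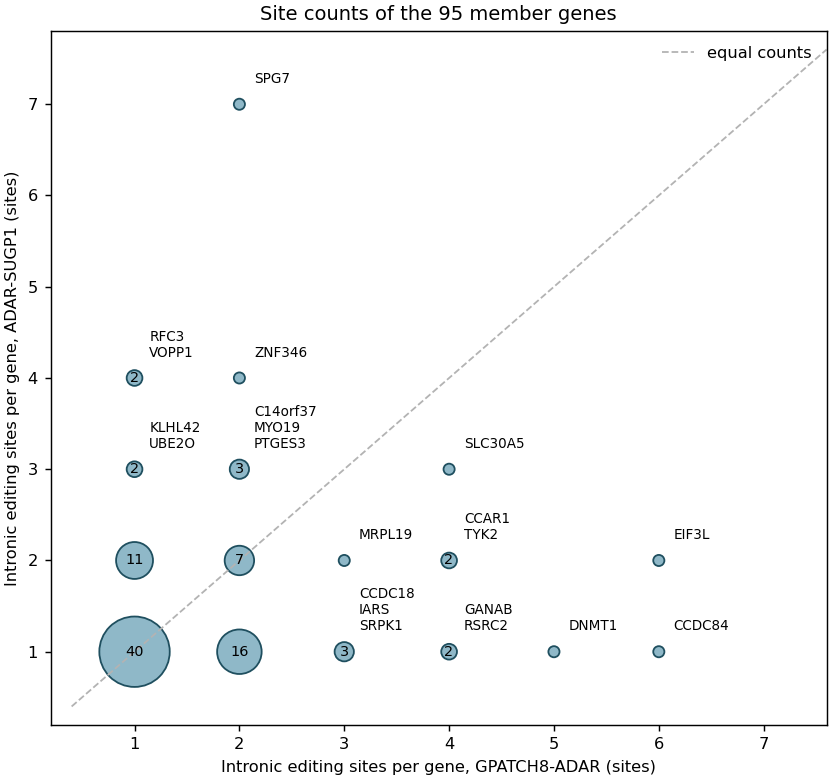
Intronic sites per gene with GPATCH8-ADAR (x axis) against ADAR-SUGP1 (y axis), in sites, for the 95 shared intron-only genes. Each circle is a combination of counts, its area and printed number give the genes with it, and combinations of 3 or fewer genes are named; 40 genes lie at 1 and 1, and SLC30A5 alone has 3 or more on both axes.

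At least 2 intronic sites were present in 40 members with GPATCH8-ADAR (42.1%), beside 32.4% of all 370 protein-coding genes with an intronic site. With ADAR-SUGP1 32 members did (33.7%), beside 21.7% of all 628. At least 3 sites were present in 12 members for GPATCH8-ADAR (12.6%, beside 11.4%) and in 10 for ADAR-SUGP1 (10.5%, beside 7.8%). Genes edited in introns only, and listed as protein-coding with that fusion alone, had 2 or more sites in 73 of 244 cases for GPATCH8-ADAR (29.9%) and in 76 of 442 for ADAR-SUGP1 (17.2%). Of the 12 genes with intronic sites with both fusions and an exonic site with either, 2 (16.7%) had 2 or more for GPATCH8-ADAR and 5 (41.7%) for ADAR-SUGP1. The rule used these counts, so the shares describe the chosen genes and were not tested.

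**Figure D2:**
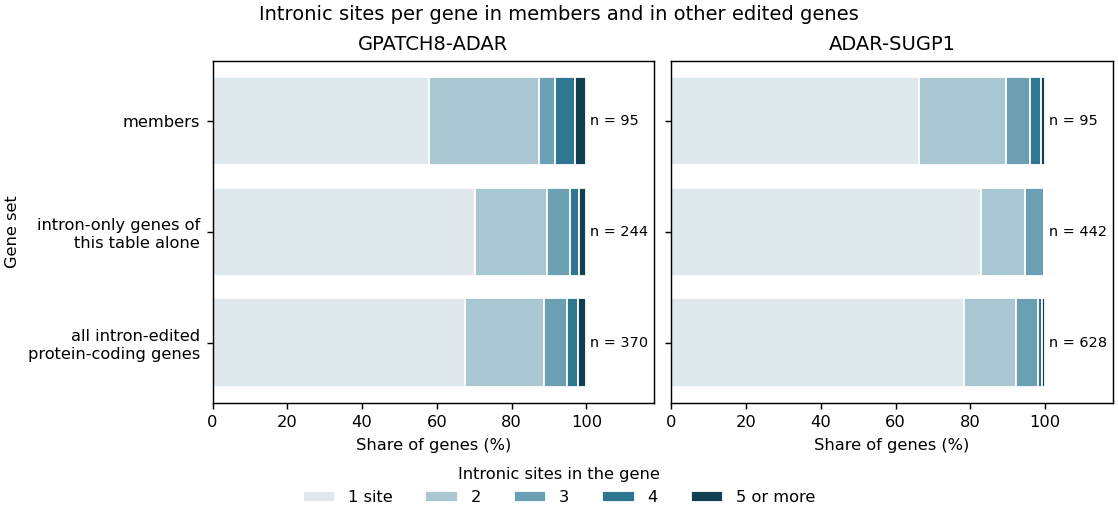
Share of genes (%, x axis) with 1, 2, 3, 4 or at least 5 intronic sites, for the 95 shared intron-only genes, for intron-only genes of 1 table alone and for all intron-edited protein-coding genes, with GPATCH8-ADAR (left) and ADAR-SUGP1 (right). Genes with 1 site make up 57.9% of the members on the left and 66.3% on the right, below 67.6% and 78.3% of all intron-edited genes.

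The fusions gave equal counts in 47 of the 95 genes, more sites with GPATCH8-ADAR in 28 and more with ADAR-SUGP1 in 20. Of the 47, 40 had 1 site with each, the lowest pair the rule admits. Among all 107 genes with an intronic site with both fusions, more sites were counted for GPATCH8-ADAR in 27.1% and for ADAR-SUGP1 in 22.4%. In 32 members the counts differed by 1 site, in 8 by 2 sites and in 8 by 3 or more. The widest gap in each direction was 5 sites, in CCDC84 (6 and 1) and SPG7 (2 and 7). Counts this small are imprecise: the exact Poisson 95% interval, which covers counting error only, is 0.0253 to 5.57 around 1 site, 0.242 to 7.22 around 2 and 2.20 to 13.1 around 6. Members had 1 to 7 sites, and the upper limit for 1 site lies above the lower limit for 7, which is 2.81. The intervals of every member therefore had to overlap, which is no test of a difference between the fusions. Counts of this size could hardly set the fusions apart in any gene.

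**Figure D3:**
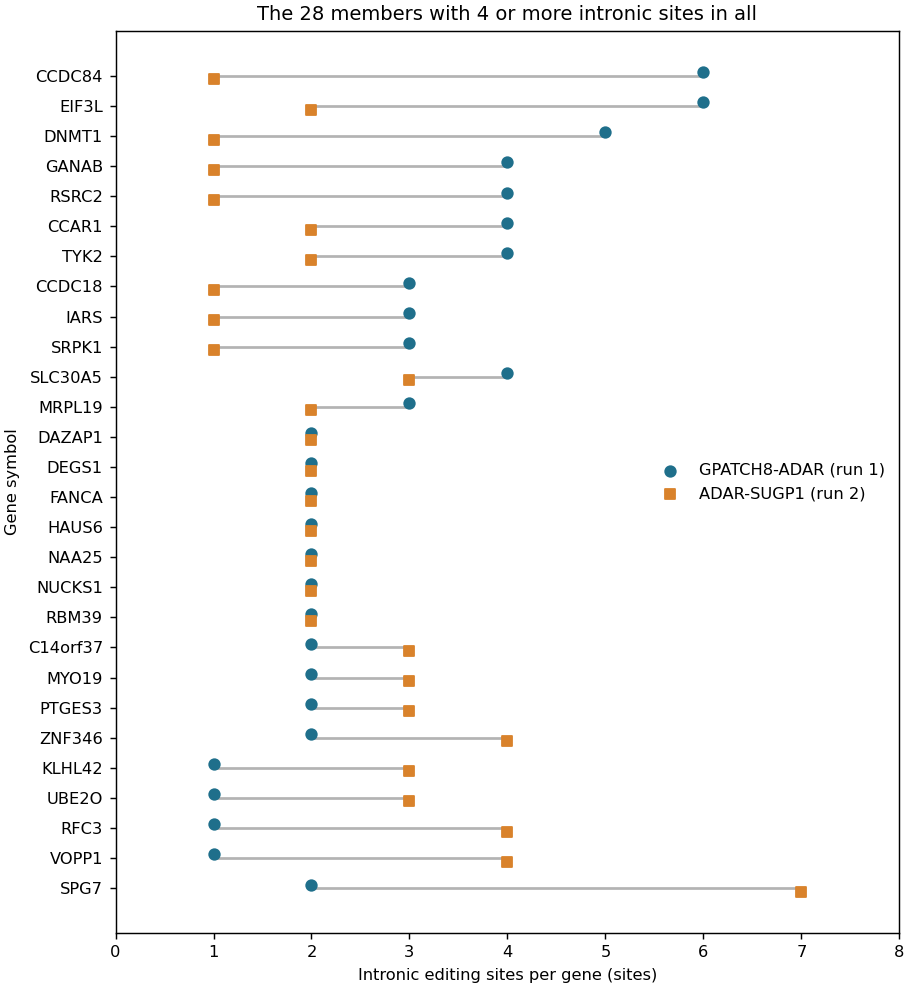
Intronic sites per gene (x axis, sites) with GPATCH8-ADAR (circles) and ADAR-SUGP1 (squares) for the 28 shared intron-only genes with 4 or more sites in all, ordered by the difference. Grey lines join the counts of a gene; CCDC84 and EIF3L lead with GPATCH8-ADAR (6 each) and SPG7 with ADAR-SUGP1 (7).

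Transcripts of the splicing machinery were among the members. Members made up 10.7% of all 891 protein-coding genes with an intronic site with either fusion, the share to set beside each list here and below. Of 8 U2 snRNP and branchpoint factors with such a site, 2 were members, too few to set apart from that share. RBM39, an SR-like protein that acts with U2AF at the 3′ splice site, had 2 sites with each fusion, all in ENST00000463004.1. SF3B3, a subunit of the SF3b complex that holds SF3B1, had 2 and 1, where the first number of each pair is here and below that for GPATCH8-ADAR and the second that for ADAR-SUGP1. Of 18 SR proteins, hnRNPs and splicing kinases 3 were members. SRPK1, which phosphorylates SR proteins, had 3 and 1 sites, DAZAP1, an hnRNP-like RNA-binding protein, had 2 and 2, and the nuclear-matrix protein MATR3 had 1 and 1.

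Of 25 other spliceosome proteins 4 were members. CCDC84, now CENATAC, a protein of the minor spliceosome, had 6 sites for the first fusion and 1 for the second, all in ENST00000334418.1. It shared second place among all protein-coding genes in the first table and stood among the genes with the lowest count in the second. CCAR1, a coactivator that also associates with spliceosomes, had 4 and 2. PRPF3 of the U4/U6 snRNP and SNRPD2, an Sm core protein, had 1 with each. Outside the lists, the arginine/serine-rich protein RSRC2 had 4 and 1 sites. CCDC130, now YJU2B, a relative of the splicing factor YJU2, had 1 and 1, as did CCNL2, a cyclin linked to splicing that was counted on the transcription list.

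Members of the translation apparatus showed counts in either direction. The list of translation factors and tRNA synthetases had 4 members among 25 edited genes. EIF3L, a subunit of the initiation factor that joins the small ribosomal subunit, had 6 sites for GPATCH8-ADAR and 2 for ADAR-SUGP1, all in ENST00000412331.2. IARS, the cytosolic isoleucyl-tRNA synthetase, had 3 and 1. VARS2, the mitochondrial valyl-tRNA synthetase, had 1 and 2, and the scaffold EIF4G3 had 1 and 1. RPL24 was the only cytosolic ribosomal protein gene among the members, of 26 edited in introns, with 1 and 1. GCN1L1, now GCN1, a ribosome-bound activator of the kinase GCN2, had 1 and 1, and SRP9, which binds the Alu domain of the signal recognition particle RNA, had 1 and 2. NAA25, the auxiliary subunit of an N-terminal acetyltransferase, had 2 and 2. ILF2, a partner of double-stranded-RNA-binding proteins, had 2 and 1.

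Replication and repair genes gave 4 members of 20 edited genes on each list, with MCM8 and POLE2 on both lists. DNMT1, which copies DNA methylation after replication, had 5 sites for GPATCH8-ADAR and 1 for ADAR-SUGP1 in ENST00000592705.1. RFC3, a subunit of the clamp loader, ran the other way with 1 and 4. POLE2, an accessory subunit of DNA polymerase epsilon, had 2 and 1, and the helicase MCM8 had 1 and 1. FANCA, a core protein of the Fanconi anaemia pathway, had 2 and 2, and PRKDC, the DNA-dependent protein kinase, 1 and 1. Of the chromatin list 5 genes of 22 were members. Besides DNMT1 these were KAT8, an acetyltransferase of histone H4, with 1 and 2, and the remodeller CHD1, MORF4L1, which belongs to acetyltransferase complexes, and ZMYND19, each with 1 and 1. ZMYND19 entered that list by its name. Outside the list, the heterochromatin-associated HP1BP3 had 2 and 1, the nuclear phosphoprotein NUCKS1 2 and 2, FAM208A (now TASOR, of the HUSH silencing complex) 1 and 1, and KIAA1841 (now SANBR) 2 and 1.

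Of 22 edited genes for mitosis, spindle and centrosome 4 were members. HAUS6, of the augmin complex that nucleates microtubules within the spindle, had 2 and 2, the anaphase-promoting complex subunits ANAPC5 and ANAPC7 had 2 and 1, and 1 and 1, and the centromere protein CENPM 2 and 1. Further dividing-cell genes outside the list were the kinetochore protein NSL1 and the dynein-associated NUDC with 1 and 1 each, and the cell cycle transcription factor MYBL2 and the tumour suppressor RASSF1 with 2 and 1 each. CCDC18 had 3 and 1. At the nuclear envelope, the pore scaffold NUP85 and XPO5, which exports precursor microRNAs, had 1 with each fusion (2 members of 19 edited genes), and TOR1AIP2, a membrane protein that activates torsin, had 2 and 1.

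Ubiquitin genes were the largest group by number, 7 members of 41 edited genes, and no list had more edited genes. Of the 7, 4 had more sites with ADAR-SUGP1, beside 20 of all 95 members, which was not tested. UBE2O, a hybrid conjugating enzyme and ligase, and KLHL42, a substrate adaptor of cullin ligases, had 1 site for GPATCH8-ADAR and 3 for ADAR-SUGP1. The ligases TRIM27 and UBE4A had 1 and 2, and ARIH2 had 1 and 1. The other members were ANAPC5 and ANAPC7, given above. RMND5B, a subunit of the CTLH ligase outside the list, had 1 and 1. UBE2O is also known for endogenous A-to-I editing and was the only member of that list, of 4 edited genes. Endogenous sites had been removed by the authors, and whether its sites lie near known ones was not tested.

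Mitochondrial genes gave 6 members of 41 edited genes. SPG7, a protease of the inner membrane, had 2 sites for GPATCH8-ADAR and 7 for ADAR-SUGP1, the highest intronic count of any protein-coding gene in that table. MRPL19 of the mitochondrial ribosome had 3 and 2 and VARS2 1 and 2. The complex I subunit NDUFB1, the RNA-processing enzyme PNPT1 and the outer-membrane channel VDAC1 had 1 with each. Outside the list, TEFM, an elongation factor of mitochondrial transcription, ATAD3B, an inner-membrane ATPase, and MSTO1 had 1 and 1. MYO19, a myosin that moves along actin with mitochondria as its cargo, had 2 and 3, and was the only member of the cytoskeleton list, of 9 edited genes.

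Genes of the secretory pathway and the cell surface included the only member with 3 or more sites for each fusion. SLC30A5, which loads zinc into the early secretory pathway, had 4 sites for GPATCH8-ADAR and 3 for ADAR-SUGP1 in ENST00000396591.3, and was the only member of 26 edited genes for solute carriers and ion transport. GANAB, the catalytic subunit of the glucosidase that trims N-glycans, had 4 and 1. The membrane traffic list gave 3 members of 30 edited genes: ARFGAP2 of COPI vesicle transport with 2 and 1, the dynein adaptor HOOK2 with 1 and 2, and SRP9. VOPP1 had 1 and 4, the reticulum-shaping protein REEP5 1 and 2, C14orf37 (now ARMH4) 2 and 3, and the complement regulator CD46 2 and 1. ERGIC3, a cargo receptor, the proteoglycan AGRN, LRP11 and UHRF1BP1L (now BLTP3B) had 1 and 1.

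Among signalling genes 6 of 34 edited were members. TYK2, a Janus kinase of interferon and interleukin receptors, had 4 and 2, and IKBKB, which releases NF-kappaB, CSNK1E, a casein kinase, and DVL1, which carries the Wnt signal, had 1 and 1. MAPK1IP1L had 1 and 2, and entered by its name. The other was PRKDC. Outside the list were NISCH (2 and 1), NCKIPSD (1 and 2) and CC2D1A (1 and 1). Metabolic members were DEGS1, which makes ceramide, with 2 and 2 (the only member of 13 edited lipid genes), MGEA5, now OGA, which removes O-GlcNAc, with 2 and 1, the pyrophosphatase PPA1 with 2 and 1, and ADSL of purine synthesis, PSPH of serine synthesis and MTAP of methionine salvage, each with 1 and 1. PTGES3, a co-chaperone of HSP90 that did not match the chaperone list, had 2 and 3. Zinc finger members, 2 of 24 edited genes, were ZNF346, which binds double-stranded RNA, with 2 and 4, and the telomere-binding ZBTB48 with 1 and 1. Further members were N4BP2L2 with 2 and 1, C22orf23 with 1 and 1, and the clone-named RP11-302B13.5 with 1 and 2.

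**Figure D4:**
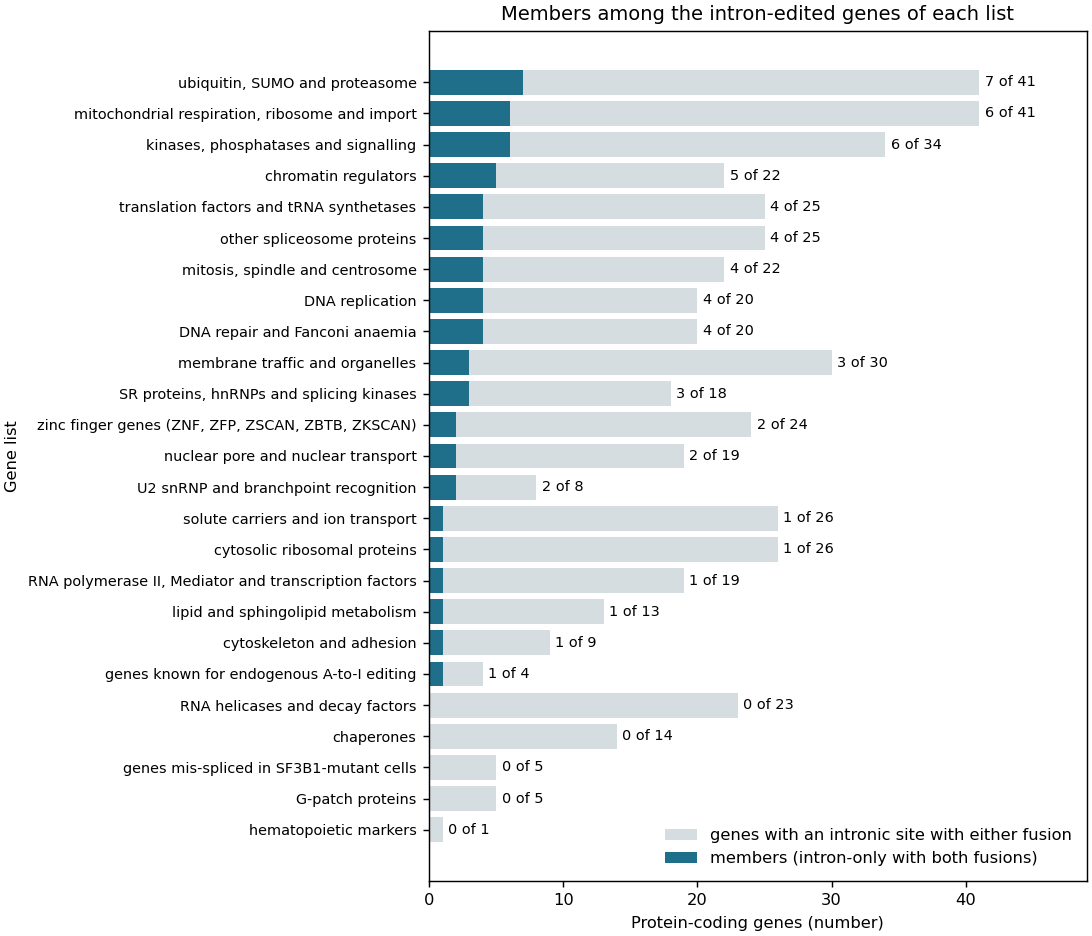
Number of protein-coding genes (x axis) with an intronic site with either fusion (grey) and of members, edited in introns only with both (blue) for 25 gene lists. Printed numbers give members of edited genes. Ubiquitin genes have 7 of 41, and RNA helicases and decay factors have 0 of 23, beside 10.7% of all 891 intron-edited genes.

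Over all 891 protein-coding genes with an intronic site with either fusion, 10.7% were members. Of the 25 lists, 20 had a member and 54 of the 95 genes were on a list, 8 of them on more than 1. Shares ran from 3.85% for cytosolic ribosomal proteins and for solute carriers to 25.0% for the branchpoint factors (2 of 8) and for genes with endogenous editing (1 of 4). RNA helicases and decay factors had 0 of 23, which allows a share of up to 13.0%, above the 10.7% of all genes. Of the 23, 6 were edited in introns with GPATCH8-ADAR, 17 with ADAR-SUGP1, and 0 with both. Sites with both were uncommon among all 891 genes too, in 107 of them. The symbols of the chaperone list had 0 of 14 (up to 21.4%), 5 with the first and 9 with the second, and the co-chaperone PTGES3, a member, is not among them. These limits divide 3 counts by the number of genes. G-patch proteins had 0 of 5, genes mis-spliced in SF3B1-mutant cells 0 of 5 and hematopoietic markers 0 of 1, too few to limit a share usefully. Among the mis-spliced genes, 1 had intronic sites with both fusions and was kept out of the members by an exonic site. The lists are incomplete and were not tested for enrichment.

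The transcript to which sites were assigned was not part of the rule. In 86 of the 95 genes at least 1 transcript held intronic sites with both fusions. Among all 107 genes with intronic sites in both tables, which include the members, this was so for 90.7%, and among the 12 that are not members for 11. Only 1 transcript was listed in each table for 89 of the members, and in 81 of these it was the same. In 42 of the 86 shared transcripts the counts were equal, in most of them at 1 site with each fusion, the lowest count possible. The 9 genes without a shared transcript were ADSL, ARIH2, CSNK1E, EIF4G3, FAM208A, NUDC and ZBTB48, each with 1 site in a different transcript for each fusion, KIAA1841 with 2 and 1, and TRIM27 with 1 and 2. How the authors chose a transcript for a site is not given in the sources used here, so a shared transcript does not show nearby sites.

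For a few genes the comparison depended on the transcript. With ADAR-SUGP1, SPG7 had 6 sites in ENST00000268704.2, which the GPATCH8-ADAR table does not list, and 1 in ENST00000566371.1, where GPATCH8-ADAR had 2. TYK2 had 4 sites with GPATCH8-ADAR in ENST00000525976.1, where ADAR-SUGP1 had 1, and its other ADAR-SUGP1 site was in ENST00000264818.6. ZNF346 had 2 sites with each fusion in ENST00000506693.1, and its surplus with ADAR-SUGP1 was 2 further sites in ENST00000512315.1. RFC3 had 1 and 3 sites in ENST00000380071.3 and 1 more with ADAR-SUGP1 in ENST00000434425.1. POLE2 had 1 with each fusion in ENST00000554851.1 and 1 more with GPATCH8-ADAR in ENST00000216367.5. In SPG7 the order of the fusions on the shared transcript is thus opposite to that of the gene sums, and in ZNF346 and POLE2 the shared transcript shows equal counts.

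No member had a site in the promoter column, which the rule did not use (0 of 95, which allows a share of up to 3.16%). Promoter sites were rare in all: 5 for GPATCH8-ADAR and 6 for ADAR-SUGP1, in 9 of the 1348 protein-coding genes listed for either fusion. At so low a share, a count of 0 among 95 genes says little about the members.

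Of the 94 members found in the RefSeq gene order of GRCh38.p14, 19 (20.2%) lay next to another protein-coding gene with an intronic site with either fusion, beside 133 of 870 (15.3%) of all such genes that were found. HP1BP3 and EIF4G3 are neighbours of each other and both members. Whether sites were assigned by strand is not given in the sources used here, so for neighbours that overlap, sites of one cannot be told from those of the other.

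The genes just outside the rule were the 12 with intronic sites with both fusions and an exonic site with either. In 7 of them, AKT1, CPSF3L, ENOSF1, PIEZO1, PSMD4, UCHL1 and ZNF655, the stop-codon column alone kept them out. CTTN had 3 and 2 intronic sites and 1 in the 5′ UTR with GPATCH8-ADAR. PSMD7 had 1 coding and 1 stop-codon site, TBC1D9B had 1 coding site, and SLC25A16 had 1 site in the 3′ UTR, each with ADAR-SUGP1. GGA2 had a stop-codon site with GPATCH8-ADAR and a 3′ UTR site with ADAR-SUGP1. GPATCH8-ADAR gave an exonic site in 3 of the 12, ADAR-SUGP1 in 10. Among all protein-coding genes with an intronic site, 356 of 370 had no exonic site with GPATCH8-ADAR and 547 of 628 had none with ADAR-SUGP1. The intronic counts of the 12 genes ran from 1 to 3 for GPATCH8-ADAR and from 1 to 4 for ADAR-SUGP1, within the range of the members. Of the other 38 protein-coding genes on both lists, 19 had an intronic site with 1 fusion alone and 19 with neither.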

How the data were processed

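Each fusion has a table deposited by the authors, in which every Ensembl transcript has a count of editing sites, in whole numbers, for each region, per the file headers. Trimmomatic, STAR and build hg19 are named in the submitters' processing notes, without versions. The series' design text states that endogenous and control-fusion editing was subtracted and that sites found in both replicates were kept. How sites were called, and how deeply each was read, is not stated by those sources. For GPATCH8-ADAR, 572 blank rows were skipped.

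Counts of protein-coding rows were summed by gene symbol (Python 3.11.15, pandas 2.3.3). Poisson intervals were exact (scipy 1.17.1, 95%), and upper limits for a count of 0 were 3 counts over the total. No test was run, because the members were chosen on these counts and both replicates enter each count together. The members and the gene lists, which are patterns of symbols, were chosen with earlier results of these data known. Members were named, except 1 that is not reported here, with the 12 genes just outside the rule. Of the 95 symbols, 85 were current in RefSeq, 9 matched as a synonym and 1 was not matched. The rule was tested on simulated tables. Alternatives changed the rule, the transcript sum and the threshold of sites.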

Additional observations from a re-analysis of the deposited data

How the results depend on the processing

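The number of shared intron-only genes stayed within 1.5 times of 95 in 6 of the 7 other forms of the rule: 86 when 1 transcript had to hold intronic sites with both fusions, 102 without the stop-codon column, 95 with promoter sites barred, 109 with all transcript types, 95 with current symbols and 89 with 1 listed transcript per table. Requiring 2 or more intronic sites with each fusion gave 17 genes. A threshold of 3 in place of 2 sites left 12 genes with GPATCH8-ADAR (40 before) and 10 with ADAR-SUGP1 (32 before). Both follow from how few sites most genes have. Taking the largest count of any 1 transcript gave means of 1.67 and 1.46 sites per gene. No paired analysis was possible because each table holds 1 count for both replicates together; for the same reason no replicate could be left out. Site depth is unknown, so genes with few reads may be missing from either list.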
